A study of Mus musculus with 28 samples.

Results

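The oxidative phosphorylation subunit genes were the nuclear genes whose array names give them as parts of the respiratory chain or of ATP synthase: Nduf genes of the a, b, c, s and v series, Sdha to Sdhd, Uqcr genes, Cyc1, Cycs, Cox4 to Cox8 genes and Atp5 genes. Of the 27671 genes on the array 82 matched these names, through 112 probes, and 80 of them were well above background, by the scanner software's own test, on 3 or more of the 28 arrays and are described here, among 19398 genes that passed the same filter. Cox8b, well above background on 0 arrays, and Cox8c, on 2 arrays, were left out. The 80 genes comprised 35 of complex I, 4 of complex II, 8 of complex III, Cycs, 16 named as complex IV and 16 named as complex V. The names also bring in a few genes that are not subunits: Cox4nb belongs to a complex of the endoplasmic reticulum, Atp5s is an assembly factor, and Cox7a2l is a relative of Cox7a2 known for joining complexes III and IV into supercomplexes.

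The study followed sorted CD8 and CD4 T cells of old (20 months) and young (4 months) Balb/c mice on 28 one-colour arrays. Cells were taken at 0 h, with 3 arrays for each age and cell type, and at 4, 12, 24 and 72 h of culture in wells carrying bound antibodies to CD3 and CD28, with 1 array for each age, cell type and time. These antibodies engage the T cell receptor and its costimulatory receptor and stand in for antigen. RNA of each time point was pooled from 4 sortings on separate days. Nothing in the labels says whether the 3 arrays at 0 h came from separate pools. P-values of comparisons at 0 h thus measure the spread between these arrays, which may be technical. P-values that use stimulated arrays also take in how the old minus young difference varied between times. The labels also differ on the gate: they call the cells naive, but some give CD62L low and CD44 high, which is not the usual naive gate, and others the reverse, so the activation state at 0 h is not settled.

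Oxidative phosphorylation passes electrons from NADH through complex I (NADH dehydrogenase) and from succinate through complex II (succinate dehydrogenase) to complex III (the cytochrome bc1 complex), from there by cytochrome c to complex IV (cytochrome c oxidase), while complex V (ATP synthase) uses the resulting proton gradient to make ATP. The mitochondrial genome encodes some core subunits of complexes I, III, IV and V, and these are not covered by the names used. Resting T cells rely mostly on oxidative phosphorylation, and T cells that have been activated raise glycolysis and enlarge their mitochondria before they divide. Several complex IV subunits exist as a form found in most tissues and a form known from heart and skeletal muscle (Cox6a1 and Cox6a2, Cox7a2 and Cox7a1) or testis (Cox6b1 and Cox6b2).

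Promoters are shown for 5 members that were among the most raised (Cycs, Atp5g1, Ndufa10, Ndufa12, Sdhd), for the muscle form Cox7a1, and for Cox7a2l, which fell. RefSeq (GRCm38.p6) held a promoter for 65 of the 80 genes, and the 250 bases before the first listed start were searched. The letters printed run 5′ to 3′ on the gene's strand, and capitals mark 3 motifs on either strand: the core of the NRF1 site (GCATGCGC), the ETS site read by GABP (CCGGAAG), and the core of the cyclic AMP response element (TGACGT), whose copies may overlap. Cycs lies on the minus strand at chr6:50566570-50566819, Atp5g1 on the minus strand at chr11:96075632-96075881, Ndufa10 on the minus strand at chr1:92473759-92474008, and Ndufa12 on the plus strand at chr10:94198785-94199034. Sdhd lies on the minus strand at chr9:50603850-50604099, Cox7a1 on the plus strand at chr7:30183921-30184170, and Cox7a2l on the minus strand at chr17:83514334-83514583.
Cycs: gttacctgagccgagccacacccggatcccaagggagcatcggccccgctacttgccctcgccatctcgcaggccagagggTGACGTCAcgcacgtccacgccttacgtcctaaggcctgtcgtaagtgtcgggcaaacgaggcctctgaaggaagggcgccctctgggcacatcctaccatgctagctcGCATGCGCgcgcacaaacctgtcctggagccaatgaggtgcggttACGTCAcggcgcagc
Atp5g1: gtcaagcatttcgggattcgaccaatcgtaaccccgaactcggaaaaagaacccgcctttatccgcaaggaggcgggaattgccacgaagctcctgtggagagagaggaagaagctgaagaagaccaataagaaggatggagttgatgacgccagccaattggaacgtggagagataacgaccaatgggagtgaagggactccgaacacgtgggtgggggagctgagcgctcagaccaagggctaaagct
Ndufa10: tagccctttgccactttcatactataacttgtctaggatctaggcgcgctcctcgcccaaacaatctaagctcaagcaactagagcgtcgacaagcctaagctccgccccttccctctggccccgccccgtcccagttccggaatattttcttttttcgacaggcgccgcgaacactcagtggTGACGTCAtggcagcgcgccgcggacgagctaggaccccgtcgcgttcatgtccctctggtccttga
Ndufa12: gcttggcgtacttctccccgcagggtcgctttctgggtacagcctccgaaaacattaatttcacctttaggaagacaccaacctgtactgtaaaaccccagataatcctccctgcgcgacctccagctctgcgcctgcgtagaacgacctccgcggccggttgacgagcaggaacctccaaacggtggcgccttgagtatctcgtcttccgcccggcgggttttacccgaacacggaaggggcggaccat
Sdhd: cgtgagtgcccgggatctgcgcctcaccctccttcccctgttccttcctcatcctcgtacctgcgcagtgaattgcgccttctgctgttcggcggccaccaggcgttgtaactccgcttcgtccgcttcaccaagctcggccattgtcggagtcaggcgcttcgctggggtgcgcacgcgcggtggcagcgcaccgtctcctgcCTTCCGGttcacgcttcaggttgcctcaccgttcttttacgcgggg
Cox7a1: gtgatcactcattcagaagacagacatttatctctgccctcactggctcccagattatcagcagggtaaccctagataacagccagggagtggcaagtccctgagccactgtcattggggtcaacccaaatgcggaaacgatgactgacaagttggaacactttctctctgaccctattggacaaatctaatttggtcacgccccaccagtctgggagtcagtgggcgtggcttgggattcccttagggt
Cox7a2l: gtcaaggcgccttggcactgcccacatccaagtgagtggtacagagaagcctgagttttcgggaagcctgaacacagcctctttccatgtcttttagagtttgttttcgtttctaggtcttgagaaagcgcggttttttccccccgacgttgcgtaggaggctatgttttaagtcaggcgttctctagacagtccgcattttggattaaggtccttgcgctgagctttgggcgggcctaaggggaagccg

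The Cycs promoter held 1 NRF1 core and 3 copies of the response element core, 2 of them overlapping on opposite strands. The Ndufa10 promoter held 2 copies of that core, which overlap in the same way. The Sdhd promoter held 1 ETS site, and those of Atp5g1, Ndufa12, Cox7a1 and Cox7a2l held none of the 3 motifs. Over the 65 members the NRF1 core was in 13.8% of promoters (9 genes), against 2.32% of the 27025 promoters of all genes. The ETS site was in 16.9%, against 7.05%, and the response element core in 15.4%, against 6.56%. Member promoters held a median of 15 CpG, against 6 in all promoters. The 4 CpG in the Cox7a1 promoter compare with the 22 in that of Ndufa12 and the 23 in that of Cycs. Members with the NRF1 core and those without it had a median 12 h change of 0.74 and 0.68 (log2) in CD8 cells and 1.20 and 1.08 in CD4 cells. Those with an ETS site and without it had 0.62 and 0.69 in CD8 cells and 0.952 and 1.101 in CD4 cells, a description without a test. A match of letters is not a site shown to be bound.

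The arrays differed in ways that touch these genes. Values are log2 of the background-subtracted signal minus the array's 75th percentile, so 0 is a bright probe's level and one probe's level says nothing about another's. The CD4 arrays of 12, 24 and 72 h were poorer, with a spread of repeated spots of 14.3% to 20.8% against 3.68% to 7.76% on the other 22 arrays, and they held 40 of the 52 missing member values. All stimulated arrays sat on other slides than the arrays at 0 h, each time and cell type on 1 slide that held both ages, except that old CD8 cells at 12 h were on slide 11 and young CD8 cells at 12 h on slide 6, so time and slide cannot be told apart. At 0 h the arrays fell on 2 slides for each cell type: CD8 on slide 13 (4 arrays) and slide 4 (old replicate 3, young replicate 1), CD4 on slide 12 (4 arrays) and slide 9 (replicate 3 of both ages). Slides 4 and 9 stood apart. The summed linear level of 12 myeloid markers was 39.9 and 188 on slide 4 and 7.68 to 42.8 on slide 13, and it was 237 and 242 on slide 9 and 2.78 to 13.2 on slide 12. On young CD4 replicate 3 only 4 of 80 members were above the CD4 mean of 0 h. Lineage markers followed the labelled cell types: Cd4 and its companions summed to 1.26 to 2.01 in CD8 and 13.5 to 24.1 in CD4 arrays at 0 h, and Cd8a and its companions to 347 to 610 in CD8 and 6.79 to 12.8 in CD4 arrays. The summed level of B cell markers was higher in old cells, at 17.0 to 26.0 against 10.8 to 12.2 in young CD8, and 10.9 to 12.1 against 2.93 to 4.95 in young CD4. Of 11 such markers 2 were called higher in old CD8 and 4 in old CD4 cells, and 0 lower. Not all leaned upward: Cr2 had -0.24 and -0.38 and was not called. In pooled sorted cells, a different mix of cells and a different amount of RNA per cell cannot be told apart.

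After stimulation most calls among the chain's transcripts came at 12 and 24 h, nearly all of them upward and in both cell types, with fewer at 4 and 72 h. Fits used limma on all 28 arrays with an age term per cell type, so that both ages together gave the 2 stimulated arrays, and adjusted p-values (Benjamini-Hochberg) ran over all genes tested. In CD8 cells 5 members rose and 2 fell at 4 h, 31 rose and 1 fell at 12 h, 28 rose and 1 fell at 24 h, and 11 rose and 0 fell at 72 h. Of all genes, 27.4% were called at 4 h, 30.3% at 12 h, 33.2% at 24 h and 28.1% at 72 h. Genes called higher made up 14.3%, 16%, 16.1% and 13.6% of all genes at these times, and members called higher 6.25%, 38.8%, 35.0% and 13.8% of the members. In CD8 cells the members' share of rises was thus above that of all genes at 12 and 24 h, below it at 4 h and close to it at 72 h. In CD4 cells 9 rose and 3 fell at 4 h, 48 rose and 1 fell of 78 with a value at 12 h, 37 rose and 6 fell of 79 at 24 h, and 18 rose and 5 fell of 74 at 72 h. Of all genes in CD4 cells, 32.2%, 40.7%, 44.8% and 39.1% were called at the 4 times, and 15.8%, 24.2%, 25.2% and 22.2% were called higher, with 19.7% called lower at 24 h. The members called higher in CD4 cells were 11.2%, 61.5%, 46.8% and 24.3%.

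**Figure D1:**
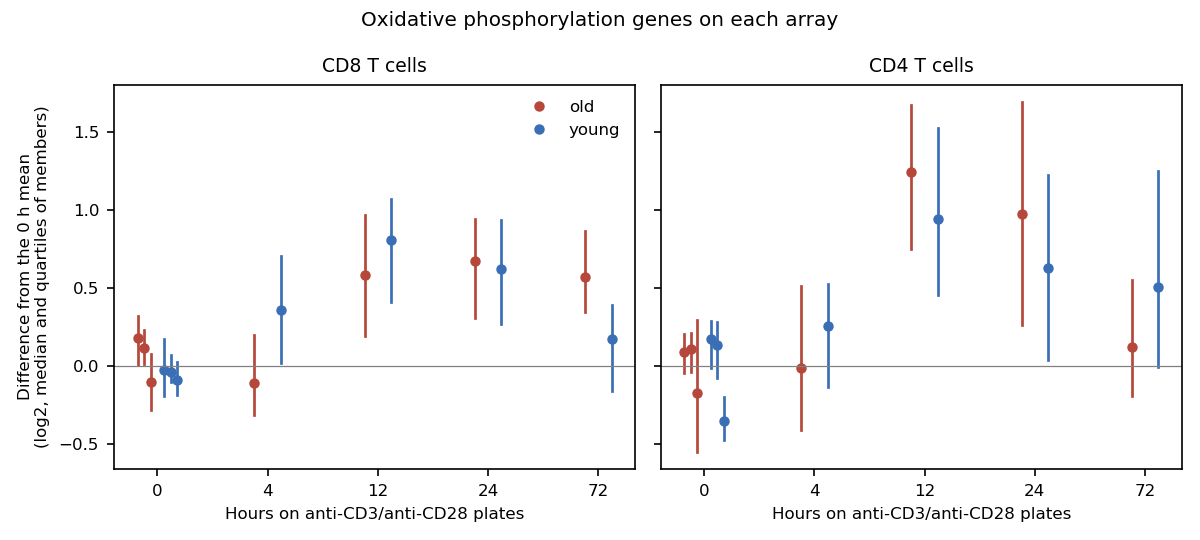
Median (point) and quartiles (line) over the oxidative phosphorylation genes of the difference from the 0 h mean of the cell type, in log2 units, for each array against hours of stimulation, with old cells left of young cells. In CD8 cells the medians at 12 and 24 h lie between 0.58 and 0.81, and in CD4 cells between 0.63 and 1.24, above every array at 0 h.

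The array medians were highest at 12 or 24 h in each age and cell type, but in old CD8 cells that at 72 h was close to that at 12 h. In old CD8 cells the median member stood at 0.18, 0.12 and -0.10 from the CD8 mean on the 3 arrays at 0 h, and at -0.11, 0.58, 0.68 and 0.57 at 4, 12, 24 and 72 h. In young CD8 cells it stood at -0.03, -0.04 and -0.09 at 0 h, and at 0.36, 0.81, 0.62 and 0.17 at the later times. In old CD4 cells it stood at 0.09, 0.11 and -0.17 at 0 h, then at -0.01, 1.24, 0.98 and 0.13. In young CD4 cells it stood at 0.18, 0.14 and -0.35 at 0 h, then at 0.26, 0.95, 0.63 and 0.51. The median change fitted in CD8 cells was 0.69 at 12 h and 0.65 at 24 h, where the median of all genes was 0.01 and -0.10, and in CD4 cells it was 1.11 and 0.68, where that of all genes was 0.26 and 0.06. The highest group mean came at 12 h for 46 of 80 members in CD8 cells and for 37 of 74 members measured throughout in CD4 cells, and at 24 h for 21 and 20. Another scaling changed the counts. Scaling to the array median, which puts the median of all genes for CD8 at 24 h at 0.29 in place of -0.10, called 11 members at 12 h in CD8 cells, and a random slide effect called 16 there and 9 at 24 h. In CD4 cells at 12 h every alternative left 26 or more members called.

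**Figure D2:**
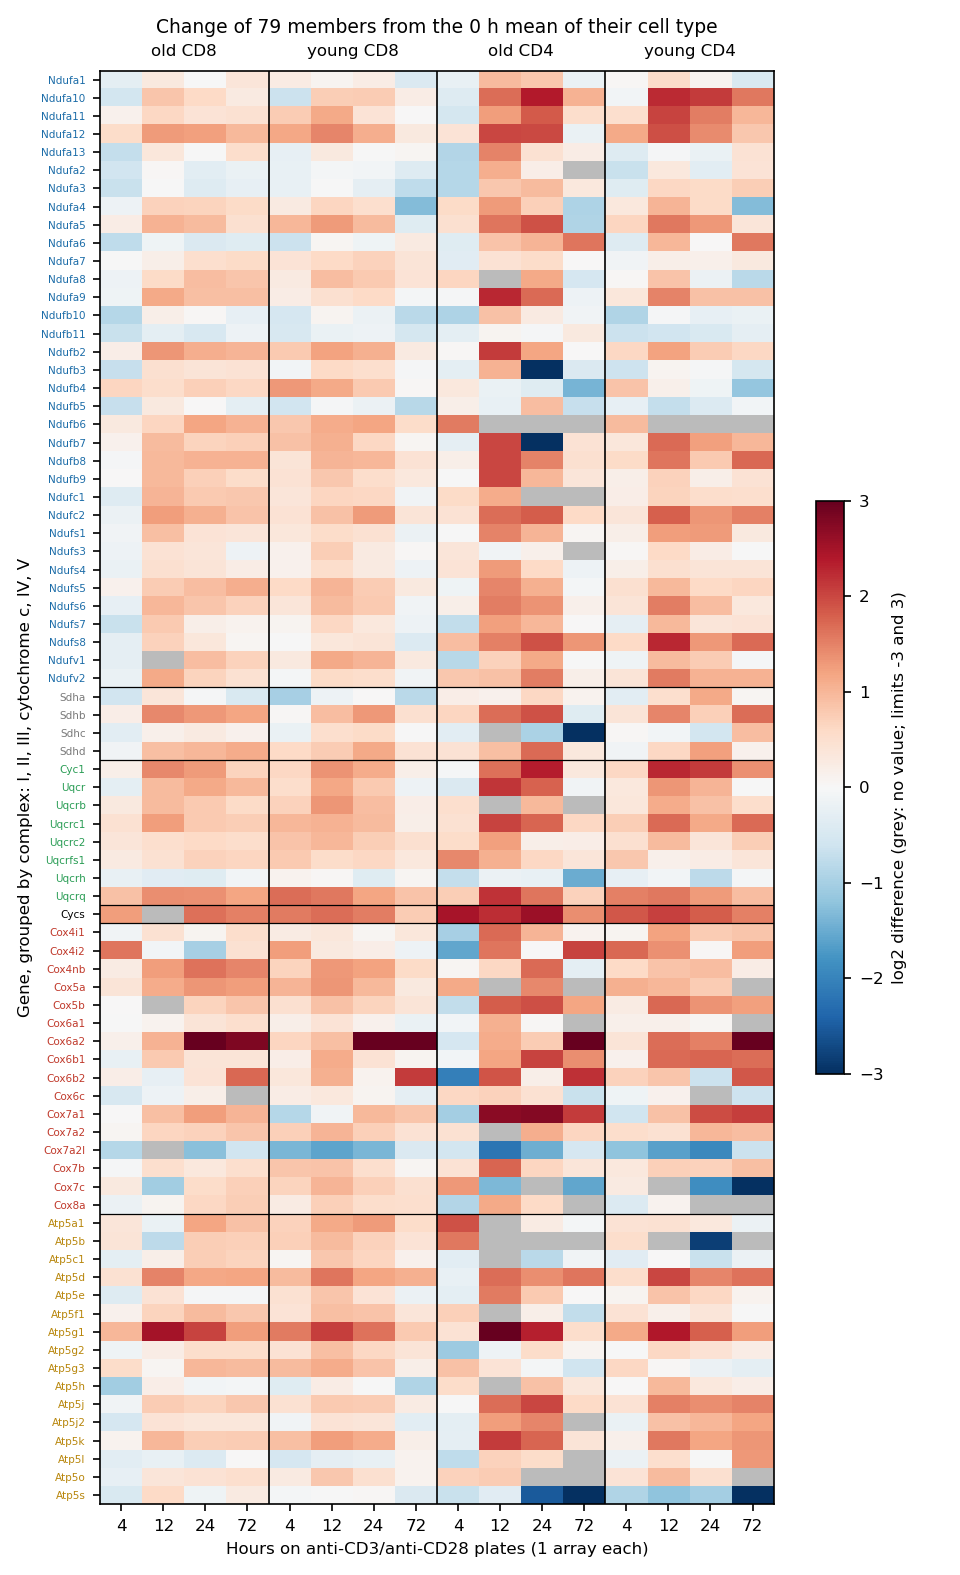
Difference of 79 members from the 0 h mean of its cell type (log2, colour; values past -3 or 3 take the end colours) on each stimulated array, with genes grouped by complex from top to bottom and old cells left of young cells within each cell type. The 12 and 24 h columns are mostly red in complexes I and III, Cox7a2l is blue in most columns, and single dark blue cells in old CD4 at 24 h include Ndufb3 and Ndufb7.

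Complex I, the largest complex and the entry point for NADH electrons, followed the group. In CD8 cells 14 of 35 members rose at 12 h and 9 at 24 h, with a median of 0.74 and 0.60, and 0 fell at either time. In CD4 cells 24 of 34 rose at 12 h, with 0 that fell and a median of 1.13, and 15 rose and 3 fell at 24 h. By the mean of both cell types at 24 h the most raised were Ndufa10 and Ndufa12. Ndufa12, an accessory subunit of the arm that binds NADH, had levels of 4.80, 4.81 and 4.44 at 0 h and 5.11, 5.83, 5.78 and 5.53 at 4, 12, 24 and 72 h in old CD8 cells. Young CD8 cells had 4.41, 4.43 and 4.47 at 0 h, then 5.72, 6.04, 5.65 and 4.85. All stimulated CD8 arrays were above all at 0 h. In old CD4 cells Ndufa12 had 4.01, 4.06 and 3.57 at 0 h, then 4.36, 5.95, 5.93 and 3.75, and in young CD4 cells 4.23, 4.25 and 3.56, then 5.08, 5.88, 5.36 and 4.75. Its 12 h change was 1.38 ± 0.29 (log2, SE; 2.59-fold, adjusted p 0.0013) in CD8 cells and 1.97 ± 0.29 (3.91-fold, adjusted p 2.7e-05) in CD4 cells, and 3 probes for the gene gave rises in both cell types at 24 h.

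Ndufa10, an accessory subunit of the membrane arm, rose in CD4 cells by 1.96 ± 0.36 at 12 h (3.88-fold, adjusted p 0.00024) and by 2.25 ± 0.36 at 24 h (adjusted p 5e-05). In CD8 cells its change of 0.69 ± 0.36 at 24 h did not pass the test (adjusted p 0.16). Ndufs8, an iron-sulphur subunit, rose in CD4 cells at 12 h by 1.88 ± 0.39 (adjusted p 0.00074). The lowest members of complex I rest on 1 array. Ndufb7, a membrane-arm subunit, had 5.20, 5.30 and 4.54 at 0 h in old CD4 cells and 4.80, 7.07, -6.41 and 5.50 at 4, 12, 24 and 72 h, whereas young CD4 cells at 24 h had 6.29. Ndufb3 gave -4.55 in old and 4.56 in young CD4 cells at 24 h. On the old array both spots were not well above background, and the falls called in CD4 cells at 24 h (-5.12 for Ndufb7 and -4.58 for Ndufb3) rest on it. In CD8 cells at 24 h both genes were above each CD8 array at 0 h, at 6.26 in old and 6.20 in young cells for Ndufb7 and 5.16 and 5.29 for Ndufb3, though neither passed the test. Ndufa4, a subunit first assigned to complex I and now placed in complex IV, rose in CD4 cells at 12 h (1.16) and fell there at 72 h (-1.11), and was called at no time in CD8 cells.

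Complex II links the tricarboxylic acid cycle to the chain. Sdhb, its iron-sulphur subunit, had 4.04, 3.97 and 3.46 at 0 h in old CD8 cells, then 3.88, 5.12, 4.97 and 4.87, and in young CD8 cells 3.05, 3.81 and 3.75, then 3.72, 4.60, 4.97 and 4.17. It rose at 24 h by 1.29 ± 0.40 in CD8 cells (2.45-fold, adjusted p 0.017) and by 1.32 ± 0.40 in CD4 cells (2.49-fold, adjusted p 0.011). Sdhd, a membrane anchor, rose by 1.07 ± 0.22 in CD8 (adjusted p 0.00092) and 1.46 ± 0.22 in CD4 cells (adjusted p 2.7e-05). Sdha, the catalytic flavoprotein, stood at -0.01 ± 0.31 in CD8 cells at 24 h (adjusted p 0.99) and rose by 0.88 ± 0.31 in CD4 cells (adjusted p 0.024), with a second probe near both values. Sdhc, the other anchor, did not pass the test at 24 h: 0.41 ± 0.58 in CD8 and -0.75 ± 0.58 in CD4 cells, where old cells at 72 h had -0.97 and young cells 3.02.

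In complex III the members that rose were 6 of 8 in CD8 cells at both 12 and 24 h, and 6 of 8 at 12 h and 5 at 24 h in CD4 cells. Its median change was 1.1 in CD8 and 1.43 in CD4 cells at 12 h, and 0.86 and 1.16 at 24 h. Cyc1, the haem-carrying cytochrome c1, had 4.78, 4.65 and 4.23 at 0 h in old CD8 cells, then 4.62, 5.88, 5.71 and 5.11, and in young CD8 cells 4.26, 4.34 and 4.36, then 5.05, 5.79, 5.54 and 4.61. In old CD4 cells it had 3.91, 3.86 and 2.26, then 3.59, 5.29, 5.99 and 3.96, and in young CD4 cells 4.18, 4.25 and 3.30, then 4.24, 5.90, 5.73 and 5.01. Levels at 12 and 24 h were above every array at 0 h in both cell types. The 24 h change was 1.19 ± 0.36 in CD8 (2.28-fold, adjusted p 0.016) and 2.23 ± 0.36 in CD4 cells (4.70-fold, adjusted p 6.2e-05).

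Uqcrq, a small subunit of complex III, rose already at 4 h, by 1.28 ± 0.27 in CD8 (2.43-fold, adjusted p 0.0014) and 1.13 ± 0.27 in CD4 cells (2.19-fold, adjusted p 0.0031), and by 1.49 ± 0.27 and 1.88 ± 0.27 at 12 h. A dimmer probe of Uqcrq went the other way, by -0.93 in CD8 and -1.11 in CD4 cells at 24 h, and such opposite signs at 24 h occurred in 8 of 19 members with several probes in CD8 and 9 of 19 in CD4 cells, Cox5a, Ndufb8 and Cox4nb among them. Uqcrh, the hinge protein between cytochrome c1 and cytochrome c, was lowest, at -0.37 ± 0.29 in CD8 and -0.51 ± 0.29 in CD4 cells at 24 h, and neither passed the test. Uqcrc2, a core protein, rose in CD8 cells at 4 h (0.61), 12 h (0.75) and 24 h (0.67), and in CD4 cells at 4 h (0.51) and 12 h (1.08).

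Cycs, the mobile electron carrier that also triggers caspases once released to the cytosol, had the largest change at 4 h among the members called there, in both cell types. In old CD8 cells it had 5.45, 5.42 and 4.93 at 0 h and 6.29, no value, 6.70 and 6.55 at 4, 12, 24 and 72 h. In young CD8 cells it had 4.62, 4.99 and 4.87, then 6.61, 6.73, 6.58 and 5.81. Old CD4 cells had 4.70, 4.69 and 4.94, then 7.20, 6.92, 7.28 and 6.11, and young CD4 cells 4.75, 4.78 and 4.42, then 6.59, 6.77, 6.53 and 6.23. No stimulated array overlapped the arrays at 0 h in either cell type. The change at 4 h was 1.40 ± 0.24 in CD8 (2.65-fold, adjusted p 0.00021) and 2.18 ± 0.24 in CD4 cells (4.53-fold, adjusted p 1.8e-06), and at 72 h still 1.14 ± 0.24 (2.20-fold, adjusted p 0.0014) and 1.46 ± 0.24 (2.75-fold, adjusted p 9.8e-05). At 12 h in CD8 cells, where the old spot has no value, 1 array carries the 1.84 ± 0.32.

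**Figure D3:**
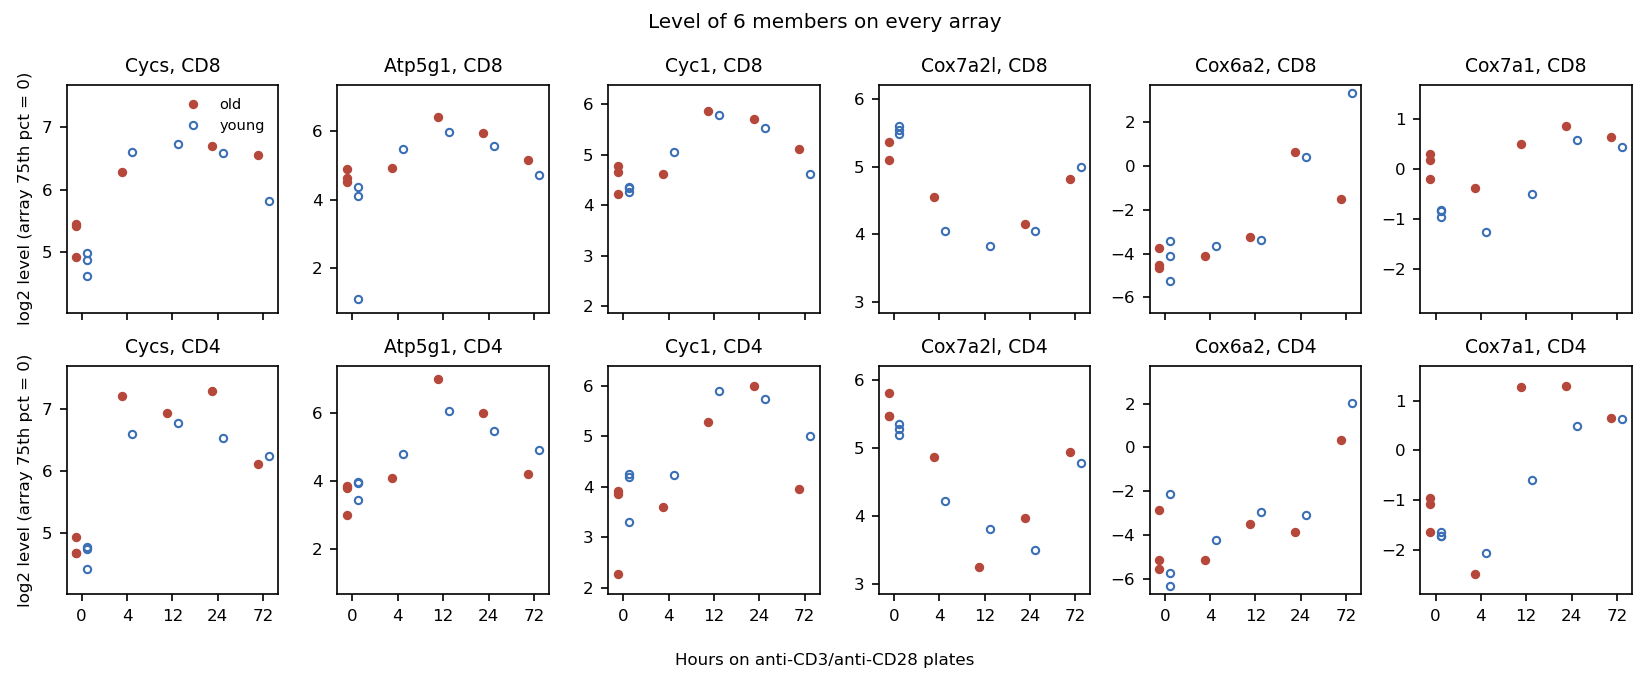
Level (log2, array 75th percentile at 0) of 6 members on every array against hours of stimulation, CD8 cells above and CD4 cells below, with old cells (filled) left of young cells (open). Cycs is above its 0 h levels from 4 h on, Atp5g1 and Cyc1 are highest at 12 or 24 h, Cox7a2l is below its 0 h levels from 4 h, and Cox6a2 is high only on the late arrays.

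The median change of the complex IV genes was 0.41 at 12 h and 0.48 at 24 h in CD8, and 1.21 and 0.78 in CD4 cells. Cox6a1 had 8.37 and 8.34 (1 array without a value) at 0 h in old CD8 cells and 8.34, 8.45, 8.74 and 8.87 at the later times, and its change passed the test at none of the 7 time points with a value. Cox4i1, the usual form of subunit 4, rose in CD4 cells at 12 h (1.45) and 24 h (0.89) and in CD8 cells did not pass. Cox4i2, its hypoxia-related counterpart, was well above background on 2 of 6 CD4 and 0 of 6 CD8 arrays at 0 h, and its values give no order. Cox5b, which lies next to the catalytic core, rose in CD4 cells by 1.77 ± 0.34 at 12 h (adjusted p 0.00043). Cox8a, the form of subunit 8 found in most tissues, was called at none of the 7 time points with a value.

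The muscle forms showed other courses. Cox6a2 had -4.51, -4.67 and -3.76 at 0 h in old CD8 cells and -4.12, -3.23, 0.63 and -1.48 at 4, 12, 24 and 72 h. In young CD8 cells it had -3.41, -4.10 and -5.24, then -3.63, -3.38, 0.43 and 3.33. In old CD4 cells the levels were -5.13, -5.54 and -2.85, then -5.13, -3.50, -3.85 and 0.35, and in young CD4 cells -6.31, -5.75 and -2.11, then -4.22, -2.93, -3.10 and 2.01. It was thus dim until 24 h in CD8 and 72 h in CD4 cells. At 0 h the spot was well above background on all 6 CD8 arrays but on only 2 of 6 CD4 arrays, so the CD4 fold is uncertain. The change was 4.81 ± 1.02 at 24 h (adjusted p 0.0011) and 5.21 ± 1.02 at 72 h (adjusted p 0.00073) in CD8, and 5.80 ± 1.02 at 72 h in CD4 cells (adjusted p 0.00018). In CD4 cells at 24 h it was 1.14 ± 1.02 (adjusted p 0.39), and the difference between the cell types at 24 h, 3.67 ± 1.44, did not pass the test (adjusted p 0.14). Background correction set the size: with normexp, which compresses dim spots, the changes were 2.87 and 2.70 in CD8 cells at 24 and 72 h and 2.84 in CD4 cells at 72 h, all called, and the difference at 24 h, 2.55, then passed (adjusted p 0.023).

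Cox7a1, the muscle form of subunit 7a, had 0.31, 0.19 and -0.20 at 0 h in old CD8 cells, then -0.37, 0.51, 0.86 and 0.64. In young CD8 cells it had -0.85, -0.82 and -0.97, then -1.25, -0.49, 0.57 and 0.44. In old CD4 cells it had -1.06, -0.96 and -1.64, then -2.48, 1.26, 1.29 and 0.66, and in young CD4 cells -1.72, -1.72 and -1.62, then -2.05, -0.58, 0.50 and 0.63. It was above all 0 h arrays at 24 and 72 h in both cell types. The 24 h change was 1.11 ± 0.32 in CD8 (2.15-fold, adjusted p 0.011) and 2.35 ± 0.32 in CD4 cells (5.10-fold, adjusted p 8.1e-06). Cox7a2, its counterpart in most tissues, rose less, by 0.70 and 1.04 at 24 h. Cox6b2, the testis form, rose only at 72 h among the times tested, by 1.91 ± 0.60 in CD8 (3.77-fold, adjusted p 0.022) and 2.03 ± 0.60 in CD4 cells (4.08-fold, adjusted p 0.011), whereas Cox6b1 rose in CD4 cells at 12 h (1.45), 24 h (1.90) and 72 h (1.53) and did not pass in CD8 cells.

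Cox7a2l, the supercomplex factor, fell at 4, 12 and 24 h in both cell types. Old CD8 cells had 5.10 and 5.36 (1 array without a value) at 0 h, then 4.55, no value, 4.16 and 4.82, and young CD8 cells 5.47, 5.60 and 5.54, then 4.05, 3.83, 4.05 and 4.99. Old CD4 cells had 5.47, 5.47 and 5.81, then 4.87, 3.24, 3.96 and 4.93, and young CD4 cells 5.28, 5.18 and 5.35, then 4.22, 3.80, 3.49 and 4.78. Every stimulated array was below every array at 0 h of its cell type. The fall was -1.11 ± 0.24 at 4 h and -1.31 ± 0.24 at 24 h in CD8 (2.47-fold lower at 24 h, adjusted p 0.00041), and -0.89 ± 0.23 and -1.70 ± 0.23 in CD4 cells (3.26-fold lower at 24 h, adjusted p 1.5e-05). At 72 h it was called in neither.

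In complex V, the ATP synthase, Atp5g1 stood out among the 3 genes for the same subunit c, which forms the rotating ring and is identical in the mature products of all 3. In old CD8 cells Atp5g1 had 4.89, 4.63 and 4.52 at 0 h, then 4.94, 6.42, 5.95 and 5.18, and in young CD8 cells 4.38, 1.08 and 4.10, then 5.48, 5.996, 5.57 and 4.72. In old CD4 cells it had 3.79, 3.85 and 3.01, then 4.09, 6.98, 5.998 and 4.20, and in young CD4 cells 3.97, 3.93 and 3.44, then 4.80, 6.07, 5.47 and 4.92. The 1.08 of young CD8 replicate 2 stands alone and widens the error of all its tests. At 12 h Atp5g1 rose by 2.28 ± 0.62 in CD8 (4.85-fold, adjusted p 0.0092) and 2.86 ± 0.62 in CD4 cells (7.23-fold, adjusted p 0.0012). Atp5g2 was called at none of the 8 time points and Atp5g3 only in CD8 cells at 24 h (0.93).

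Atp5d, the delta subunit of the central stalk, rose by 1.17 ± 0.29 in CD8 and 1.43 ± 0.29 in CD4 cells at 24 h (adjusted p 0.0035 and 0.00046) and was still raised at 72 h, by 1.13 and 1.62. Atp5b, the catalytic beta subunit, was called lower in CD4 cells at 24 h (-2.57), but its brightest probe had a value on 1 of the 6 CD4 arrays from 12 h on, young CD4 at 24 h. The other 2 Atp5b probes gave 0.67 and 1.63 there, and 1.47 and 1.33 in CD8 cells. Atp5s, the assembly factor, was called lower in CD4 cells at 24 h (-1.76) and 72 h (-3.70), where old cells had -4.18, not well above background, and young cells -3.32. A second Atp5s probe gave -0.49 at 24 h. Cox4nb, the neighbour gene that is no subunit, rose at 24 h by 1.42 in CD8 and 1.31 in CD4 cells.

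**Figure D4:**
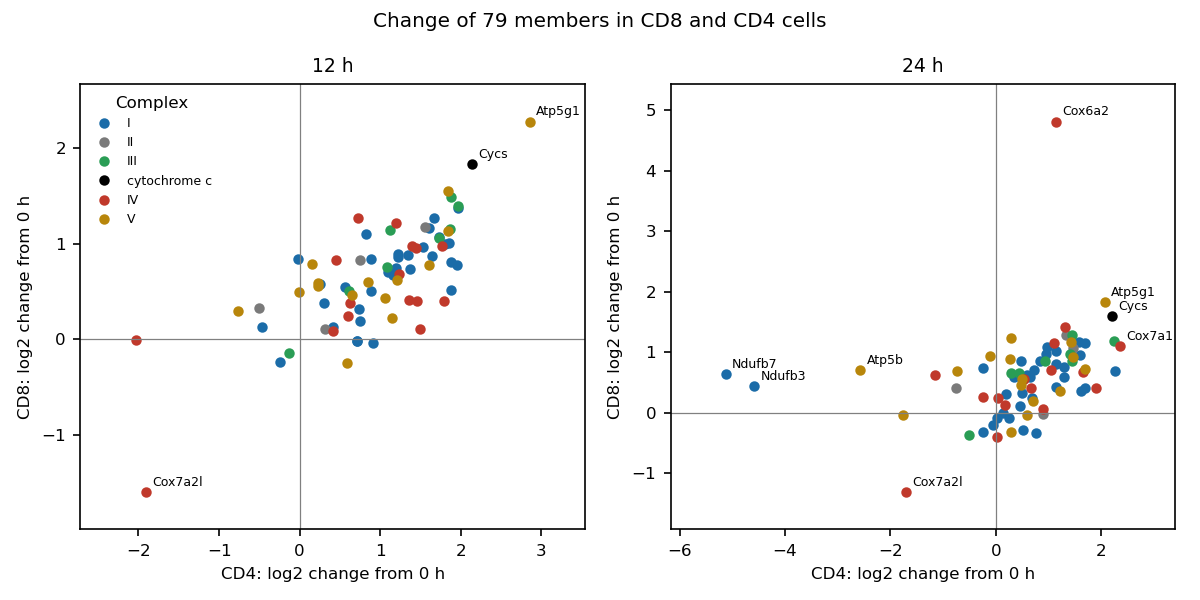
Fitted log2 change from 0 h of those of 79 members that had a value in both cell types, in CD8 cells (vertical) against CD4 cells (horizontal) at 12 h and 24 h, coloured by complex. At 12 h Atp5g1 and Cycs lie highest in both cell types and Cox7a2l is low in both, while at 24 h Cox6a2 (4.81 in CD8, 1.14 in CD4 cells) and the low CD4 values of Ndufb7, Ndufb3 and Atp5b lie apart.

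At 12 h the change was above 0 in both cell types for 66 of 78 members, with Pearson's r of 0.74 across members, against 0.67 across all genes. At 24 h it was above 0 in both for 55 of 79, with r of 0.29 and Spearman's rho of 0.52, against r of 0.69 across all genes. Old and young cells of 1 type, which share no array, had r of 0.62 in CD8 and 0.82 in CD4 cells at 12 h, and of 0.89 and 0.31 at 24 h. The low 0.31 stands beside a rho of 0.76 and the dark spots of old CD4 cells. Genes are not independent replicates, and arrays of 1 time mostly share a slide, so these are descriptions.

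Testing whether the change differed between CD8 and CD4 cells gave 0 members at 4 and 12 h (0.0619% of all genes at 4 h, 0.0206% higher and 0.0412% lower, and 1.25% at 12 h, with 2 and 9 members at an unadjusted p under 0.05), 1 at 24 h (4.87% of all genes, 2.91% lower) and 4 at 72 h (8.23%, with 3.19% higher and 5.04% lower). The member at 24 h was Atp5b (3.28 ± 0.61, adjusted p 0.0094), which rests on 1 CD4 array and whose other probes are given above. At 72 h Atp5s (3.61 ± 0.55), Cox7c (3.89 ± 0.87) and Ndufb4 (1.60 ± 0.35) had a positive difference (CD8 minus CD4), with falls called in CD4 cells (-3.70, -3.29 and -1.28) and changes of -0.09, 0.60 and 0.32 in CD8 cells that did not pass. Ndufa6 had a negative one (-1.64 ± 0.41), with a rise called in CD4 cells (1.58) and a change of -0.05 in CD8 cells that did not pass. Ndufb4, a membrane-arm subunit, had 5.22 in old and 4.63 in young CD8 cells at 72 h, beside 4.41 to 4.79 at 0 h, but 2.92 in old and 3.16 in young CD4 cells, below all CD4 arrays at 0 h, whose lowest was 3.82. Ndufa6, a subunit of the matrix arm, had 3.88 and 4.51 in CD8 cells at 72 h, within the range of 0 h, but 5.35 and 5.31 in CD4 cells, above 3.41 to 3.97. Cox7c, a small subunit of complex IV, had 4.48 and 4.26 in CD8 cells at 72 h, but 2.58 in old and -0.89 in young CD4 cells. With a random slide effect none of these 5 was called, with adjusted p from 0.074 (Atp5s) to 0.24 (Ndufa6).

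Before stimulation the members tended to be higher in CD8 than in CD4 cells. Of 80 members 72 had a positive difference, with a median of 0.36 (log2), against 0.02 for all genes, and 12 were called higher and 0 lower. Of all genes 13.7% were called, 8.77% higher and 4.91% lower, and of the members 15.0%. Cox7a1, whose levels are given above, differed most, by 1.07 ± 0.15 (2.09-fold, adjusted p 0.0014), with the old CD8 arrays and young CD8 replicates 1 and 2 above all CD4 arrays and young CD8 replicate 3, at -0.97, beside the highest CD4 array, at -0.96. Cox5b had 6.34, 6.21 and 5.88 in old and 5.96, 5.74 and 5.72 in young CD8 cells, against 5.23, 5.32 and 4.02 in old and 5.51, 5.42 and 4.80 in young CD4 cells, so the cell types did not overlap (0.93 ± 0.24, adjusted p 0.033). The others were Atp5l (0.68), Atp5g2 (0.68), Cox4i1 (0.66), Ndufb8 (0.66), Uqcrq (0.63), Ndufa12 (0.61), Ndufa9 (0.53), Cox7a2 (0.52), Ndufb2 (0.46) and Ndufb9 (0.39). Ndufa11 and Ndufa10, with 1.04 and 0.96, had wider errors and did not pass.

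The number called rests on the scaling and on single arrays. Scaling to the median called 0 of these members and quantile normalization 1, although their medians stayed at 0.32 and 0.19. Leaving out any 1 array at 0 h called between 1 and 12 members: 2 without old CD8 replicate 1, 1 without old CD8 replicate 2, 3, 4 and 3 without young CD8 replicates 1, 2 and 3, 5 and 6 without old CD4 replicates 1 and 2, and 4, 5 and 5 without young CD4 replicates 1, 2 and 3. With slides 4 and 9 left out, 53 members were higher and 2 lower, among 49.3% of all genes called, and the median was 0.30. Markers of other cells differed as well: 3 of 11 B cell markers (Cd22 3.03, Cd79b 2.23, Cd72 1.12) and 2 of 6 NK cell markers (Klrk1 3.49, Klra8 2.90) were called higher in CD8 cells and 0 lower, and 0 of 12 myeloid markers were called. Their part in the members' difference was not tested. No slide at 0 h held both cell types, so cell type and slide cannot be told apart.

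**Figure D5:**
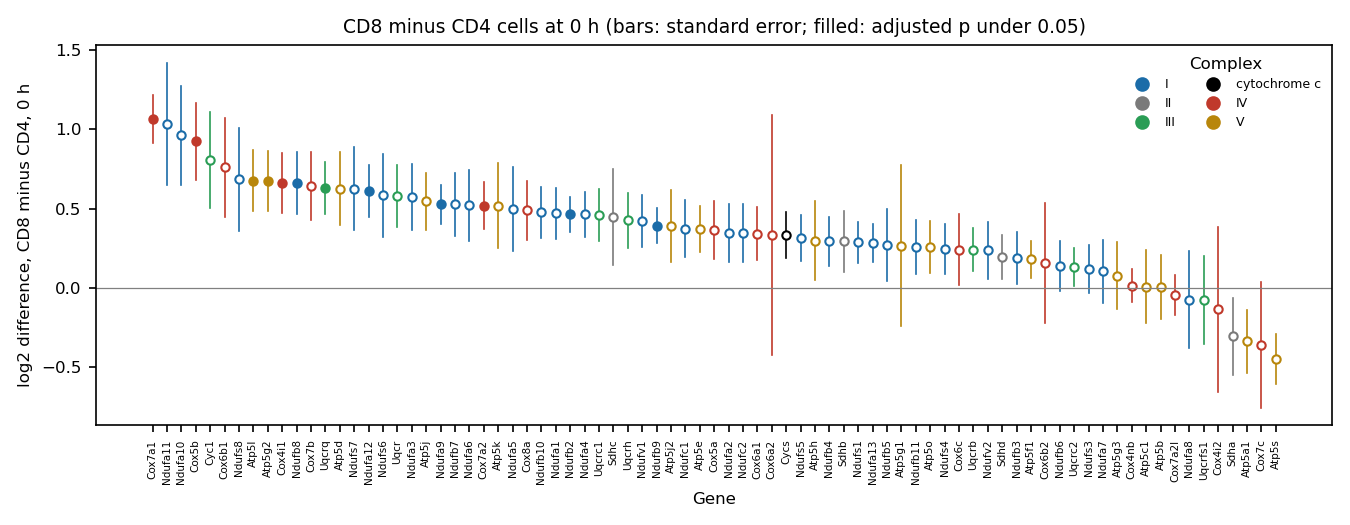
Difference between CD8 and CD4 cells at 0 h (log2, CD8 minus CD4, point) with its standard error (bar) for 79 members, ordered by size and coloured by complex, filled where the adjusted p is under 0.05. Most points lie above 0, and the 12 filled points run between 0.39 and 1.07.

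Age made little difference that passed the test. Old against young cells gave 1 member in CD8 (2.22% of all genes, 1.70% higher) and 0 in CD4 cells (1.74% of all genes, 1.22% higher, and 4 members at an unadjusted p under 0.05). The member was Cox7a1, higher in old CD8 cells on every array: 0.31, 0.19 and -0.20 in old, against -0.85, -0.82 and -0.97 in young CD8 cells (0.98 ± 0.21, 1.97-fold, adjusted p 0.047). Within slides it was 1.14 on slide 13 and 0.65 on slide 4. The call is close to the threshold: it was kept in 5 of 20 alternatives, with differences of 0.74 to 1.14 in all of them, and lost without any 1 of 10 of the 12 arrays at 0 h, the exceptions being old CD4 replicate 3 and old CD8 replicate 3. In CD4 cells Cox7a1 differed by 0.47 ± 0.21 (adjusted p 0.30), and the difference between cell types was 0.51 ± 0.30 (adjusted p 0.55). The test of that difference called 0 members (0.0516% of all genes, with 3 members at an unadjusted p under 0.05). Atp5g1 was 1.49 ± 0.72 higher in old CD8 cells (adjusted p 0.48), with the single low young array in the comparison.

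The median age difference over members was 0.09 in CD8 and 0.05 in CD4 cells, against -0.05 and -0.03 for all genes. Within slides its sign differed: 0.20 on slide 13 (64 of 80 members positive) and -0.11 on slide 4 (21 of 78) in CD8 cells, and -0.09 on slide 12 (31 of 80) and 0.20 on slide 9 (51 of 80) in CD4 cells. With slide as a block 1 member was called in CD8 cells (9.61% of all genes) and 8 in CD4 cells (23.0% of all genes), among them Atp5s (0.81) and Ndufb9 (0.38), which were higher, and Ndufa11 (-0.93), Atp5d (-0.62), Ndufa10 (-0.60), Cyc1 (-0.57) and Ndufv1 (-0.50), which were lower in old CD4 cells. With slides 4 and 9 left out, 28 members were called higher and 1 lower in old CD8 cells, at 30.9% of all genes called, and 4 higher and 11 lower in old CD4 cells, at 31.7%. These calls come from 2 arrays against 2 on 1 slide.

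After stimulation 0 members differed between old and young cells over the 4 times, in CD8 cells (0.412% of all genes, 0 members at an unadjusted p under 0.05) or CD4 cells (0.113%, 3 members). Whether the old minus young difference moved between 0 h and the stimulated times was also tested and called 0 members in either cell type (0.0103% of all genes in CD8 and 0% in CD4 cells, with 0 and 1 members at an unadjusted p under 0.05). Both fits took 1 age difference per cell type over the 4 stimulated times, which are not replicates of 1 condition. A difference that changed sign between times would cancel in them, so the 0 calls do not cover age differences at single times. Single times differed in both directions. The median old minus young difference in CD8 cells was -0.43 at 4 h, with 8 of 80 members positive, -0.11 at 12 h, 0.00 at 24 h and 0.46 at 72 h, with 71 of 79 positive. The median of all genes in CD8 cells was -0.08, -0.14, 0.02 and 0.08 at these times. In CD4 cells the members' median was -0.19, 0.27, 0.42 and -0.27, and that of all genes -0.24, 0.28, 0.15 and 0.01, so at 4 and 12 h the members stood close to all genes. With 1 array for each age these have no test.

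Other genes of the mitochondrion give the setting, beside the shares of all genes called higher at each time given above. Of 25 genes of mitochondrial protein import 19 rose and 0 fell at 24 h in CD8 cells (median 1.02), and 21 rose and 0 fell in CD4 cells (median 1.60), led by Tomm40, the outer membrane pore (2.35 and 3.07), and Timm50, an inner membrane receptor (2.00 and 2.94). At 4 h 15 of the 25 import genes had already risen in CD8 and 17 in CD4 cells. The lowest were Tomm22 (0.33 and -0.01) and Tomm7 (0.07 and 0.48), which did not pass. Of the mitochondrial ribosomal proteins 52 of 78 rose in CD8 and 56 of 75 in CD4 cells at 24 h, and 0 fell. Mrps6 (1.86 and 2.89) and Mrpl35 (1.72 and 2.58) were highest, and Mrpl34 (1.12 and -2.67) and Mrpl10 (0.78 and -1.14) lowest by the mean of both cell types. The tricarboxylic acid cycle with pyruvate dehydrogenase had 9 of 18 higher in CD8 and 14 of 17 higher and 1 lower in CD4 cells, with Idh3a (1.47 and 1.88), of isocitrate dehydrogenase, and Dlat (1.18 and 2.08), of pyruvate dehydrogenase, on top. Pdhb had 0.05 and 0.52. The one lower, Pdhx (-3.13), had a change of 1.05 in CD8 cells that did not pass.

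Assembly factors were mixed, with 18 higher and 7 lower of 52 in CD8 and 29 higher and 5 lower in CD4 cells at 24 h. Ndufaf2, for complex I (1.83 and 2.18), and Uqcc2, for complex III (1.15 and 2.55), rose, and Timmdc1, for complex I (-1.11 and -1.71), and Cox20, for complex IV (-1.60 and -0.68), fell. Of 6 further chain genes whose names fall outside the rule, 5 rose in CD8 and 4 in CD4 cells, among them Ndufab1, the acyl carrier subunit of complex I (1.45 and 1.67), and Higd1a (1.66 and 1.90), while Higd2a had -0.31 and 0.51 and Atp5md 1.00 and 0.53. Of 20 regulators of mitochondrial genes 2 rose and 0 fell in CD8 cells at 24 h: Pprc1, a coactivator of NRF1 (1.11), and Top1mt, the mitochondrial topoisomerase (2.00). In CD4 cells 5 rose, Myc (2.23), Top1mt (2.14), the helicase gene Twnk (1.40), Pprc1 (1.08) and Tfb1m (1.04), and 2 fell, Polrmt, the mitochondrial RNA polymerase (-1.86), and Esrra (-0.85). Myc in CD8 cells (0.62) did not pass. Nrf1 (0.28 and -0.07), Gabpa (-0.32 and 0.10), Tfam (0.49 and -1.24), Yy1 (-0.42 and -0.20) and Ppargc1a (1.64 and -0.39) did not pass at 24 h in CD8 or CD4 cells, nor did Esrrg, Gabpb1, Gabpb2, Polg, Polg2, Ppargc1b, Ssbp1 and Tfb2m. Earlier, 5 of the 20 regulators rose and 0 fell in CD8 cells at both 4 and 12 h. In CD4 cells 6 rose and 3 fell at 4 h, and 5 rose and 1 fell of 19 with a value at 12 h. The shares of all genes called higher are given above. The regulators' share of rises was close to these in CD4 cells at 12 and 24 h, and below in CD8 cells at 24 h. It was above them at 4 h in both cell types and at 12 h in CD8 cells, by few genes and without a test. At 0 h Myc was higher in CD8 than in CD4 cells (1.01) and Nrf1 lower (-0.38).

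Markers of other cells moved over the same times. At 24 h 8 of 12 myeloid markers fell in CD8 (median -3.75) and 5 of 12 in CD4 cells (median -1.65), and 7 of 11 B cell markers fell in CD8 and 2 of 11 in CD4 cells, with 1 higher there. Of 9 T cell markers 4 fell in CD8 cells, and of 8 with a value 2 rose and 1 fell in CD4 cells. Of 6 NK cell markers 1 rose and 4 fell in CD8 and 2 fell in CD4 cells, and of 7 erythroid and platelet markers 1 rose and 4 fell in each cell type. Their part in the members' changes was not tested. With slides 4 and 9 left out 30 members rose and 1 fell in CD8 cells at 24 h, and 36 rose and 6 fell in CD4 cells. The share of all genes called in that setting is not given here, so these counts do not show whether the members stood out there. Myeloid markers on the arrays kept still differed: their summed linear level was 0.561 in old CD8 cells at 24 h, against 42.5 and 42.8 in old CD8 replicates 1 and 2 at 0 h.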

How the data were processed

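Arrays were 1-colour (Cy3) Agilent arrays. Per the file headers, the deposited intensity values were background-subtracted and detrended by Agilent Feature Extraction, and arrays were not scaled to each other. The authors' deposited table of log2 values, whose scaling and centring are not given in the sources used here, had column medians between -0.974 and 0.494. It matched the scanner values for 22 of 28 arrays, and its columns for CD8 cells at 4, 12 and 24 h matched another time of the same age. Since the CD4 array most like each stimulated CD8 array was that of the labelled time, the scanner files were followed.

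Values were log2 of the processed intensity minus the array's 75th percentile. A probe had to be well above background on 3 or more arrays, and the brightest stood for its gene. Models were fitted by limma (version 3.58.1, R version 4.3.3), and adjusted p under 0.05 (Benjamini-Hochberg, over 19398 genes) was called. The 0 h fit used 12 arrays, and the time fit all 28. Members, gene lists and tests were chosen with earlier results of these data known. Named genes were those with the 2 highest and 2 lowest mean 24 h changes of a complex or list, all of complex II, Cyc1, Cycs, isoform families, regulators, and members called for age or cell type. Other genes named were chosen after their values were seen, Ndufs8, Ndufa11 and Ndufv1 among them. The values of 1 member are not reported here, though it enters all counts and medians.

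Replicate numbers paired CD4 samples, which follow the slides: same-numbered arrays of old and young CD4 cells deviated together (r of 0.547, 0.487 and 0.683). In CD8 cells same-numbered arrays did not deviate together (-0.239, 0.088 and -0.404). Simulated data in which 100 of 19398 genes changed were used to test the fits. For CD8 cells at 24 h, 10% of changes of 1 log2 unit and 25% of changes of 2 were recovered. For old against young CD4 cells at 0 h, the shares were 13% and 51%. In the data far more genes were called for CD8 cells at 24 h, and the adjustment of p-values depends on how many genes change. The simulated shares are thus not the recovery of that fit. Alternatives were other scalings, background correction, filters, probe averaging, slide and replicate blocks, and leaving out arrays.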

Additional observations from a re-analysis of the deposited data

Results flagged for a closer look

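For 5 members the change from 0 h differed between CD8 and CD4 cells by the limma test of that difference. Atp5b, the beta subunit of ATP synthase, differed by 3.28 (log2, CD8 minus CD4) at 24 h, with a single CD4 array behind it. At 72 h Cox7c differed by 3.89, Atp5s by 3.61, Ndufb4 by 1.60 and Ndufa6 by -1.64. The CD4 arrays of these times had the wider spread of repeated spots and were read on another scanner than the CD8 arrays. The old Atp5s spot at 72 h was not well above background. The part of array quality in these differences was not tested.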

How the results depend on the processing

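Counts of members called moved with the processing as follows, and the cause was not tested except where fewer arrays or genes entered a fit. Old against young CD4 cells at 0 h (0 called) gave 1 with normexp, 8 with a slide block and 15 without slides 4 and 9. Old against young CD8 cells (1) gave 0 with median scaling, quantile normalization, no filter, the mean of probes or the replicate block, 29 without slides 4 and 9, and 0 to 1 without single arrays. CD8 against CD4 cells at 0 h (12) gave 0 with median scaling, 1 with quantile normalization or no filter, 7 with the mean of probes, 55 without those slides, 16 with the replicate block, and 1 to 12 without single arrays. The age difference between cell types (0) gave 4 with a slide block and 28 without those slides. The replicate block changed no other call.

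In CD8 cells 4 h (7) gave 2 with median scaling, 1 with normexp, 4 without a filter, 3 with a random slide block, 2 without young, 32 with the times of the authors' table, 16 without slides 4 and 9 and 5 to 11 without single arrays, 11 without old CD4 replicate 3. The 12 h count (32) gave 11 with median scaling, 13 with quantile or normexp, 16 with the random block, 17 without old, 12 without young and 28 to 37 without single arrays. The 24 h count (29) gave 18 with quantile or normexp, 9 with the random block, 13 without old, 14 without young, 7 with the authors' times and 27 to 34 without single arrays. The 72 h count (11) gave 4 with median scaling or without old, 7 with the mean of probes, 2 with the random block and 8 to 13 without single arrays.

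In CD4 cells 4 h (12) gave 4 with median scaling or normexp, 19 with quantile normalization, 3 with the random block, 6 without old and 9 to 17 without single arrays. The 12 h count (49) gave 26 with normexp, 28 without old and 46 to 51 without single arrays. The 24 h count (43) gave 26 with normexp, 18 without old and 43 to 45 without single arrays. The 72 h count (23) gave 11 with median scaling, 12 with normexp, 13 without young and 22 to 24 without single arrays. Differences in change gave 2 at 4 h with the authors' times (0), and at 12 h (0) 1 without young and 2 with the authors' times or without slides 4 and 9. At 24 h (1) they gave 2 with quantile normalization, 0 with the random block, 5 without young, 7 with scanner-matched CD4 arrays or without those slides, 20 with the authors' times and 1 to 2 without single arrays. At 72 h (4) they gave 2 with median scaling or without old, 8 with quantile normalization or without those slides, 0 with the random block, 10 with scanner-matched arrays and 4 to 5 without single arrays.

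Normexp covered 53 of 80 members, those measured on every array. Of the members called at 12 h, 7 of 32 in CD8 and 22 of 49 in CD4 cells were called under all 3 other scalings, and at 24 h 9 of 29 and 26 of 43. Members without a normexp value could not meet this condition, so these shares also reflect missing values. Normexp on the mean signal was not run, since 18 of the files used here hold only the median signal. Normexp on the median signal, leaving out slides 4 and 9, and the alternatives on scanner and authors' times were chosen after seeing the data. The small number of arrays limits precision, and 1 array stands behind each age at each stimulated time.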
